A study of Mus musculus with 10 samples.

Results

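A set of 10 genes used as markers of astrocytes were followed here through TRAP libraries of the mouse hippocampus. They are *Aqp4*, *Gfap*, *Aldh1l1*, *Gja1*, *Gjb6*, *S100b*, *Slc4a4*, *Apoe*, *Clu* and *Glul*. The genes were chosen by name, as a list of astrocyte markers, with earlier results of these data known. They were taken from 54838 gene identifiers counted in each library, and all 10 were among the 16806 genes that passed the filter on low values. TRAP (translating ribosome affinity purification) recovers RNA bound to ribosomes that carry an EGFP-tagged L10a protein. All mice were C57BL/6 males of about 10 weeks that carried *Drd2*-Cre and the Cre-dependent *Eef1a1* LSL EGFP-L10a allele, and no group was treated. The 5 Dorsal libraries came from the dorsal end and the 5 Ventral libraries from the ventral part of the hippocampus without the ventral subiculum, each from the pooled tissue of 5 mice. A replicate is therefore a pool, and its spread does not give the spread between mice. Both parts were dissected from hippocampi of the same mice, and whether libraries of equal number share mice is not stated. The paper defined the ventral part as the larger share of the length, and tissue input per pool was not compared here. *Drd2*-Cre acts in hilar mossy cells, glutamatergic neurons of the dentate gyrus, and also in sparse interneurons and other cells that express *Drd2*. Untagged whole-tissue RNA was not analysed here, so that neither enrichment nor depletion of astrocyte RNA by the precipitation was measured.

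Astrocytes are the glia that take up glutamate and potassium around synapses, contact blood vessels with their endfeet, and exchange ions and metabolites through gap junctions. Their water channel, connexins and bicarbonate carrier serve these contacts, glutamine synthetase converts the glutamate they take up, and apolipoproteins E and J carry the lipids they release. Several of the genes are also active elsewhere, *Gfap* and *Apoe* in neural stem cells and *Glul* and *S100b* in oligodendrocytes. Astrocytes are not a cell type that the *Drd2*-Cre label was chosen for.

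Counts on genes numbered 11138676 to 16779821 in Dorsal and 11618625 to 20594364 in Ventral libraries. Levels are given as counts scaled to library size (CPM) after TMM scaling, and 3 counts, taken as the detection floor, equalled 0.146 to 0.269 CPM, which covers counting error only. The pan-neuronal list had a summed level of 16301 to 20369 CPM in the Dorsal libraries and 20853 to 25096 CPM in the Ventral ones, and its gene *Snap25*, a synaptic vesicle fusion protein, stood at 2373 CPM per kb of exonic length. Read pairs that fell outside genes made up 21.8 to 33.9% in Dorsal and 11.6 to 19.3% in Ventral libraries, without overlap, so that this share cannot be told apart from the region. In bulk RNA, fewer cells of a type and less RNA per cell cannot be told apart.

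Of the 10 markers 9 lay above the floor in all libraries, and *Aldh1l1* was below it, with 1 count, in Dorsal 1. Levels between genes were compared per kb of exonic length, as the mean ± SD over the 10 libraries. *Glul*, glutamine synthetase, was by far the most abundant at 120 ± 13.1 CPM per kb, which placed it among the top 1.69% of tested genes. *S100b*, a calcium-binding protein, had 20.6 ± 4.17 CPM per kb and *Clu*, clusterin or apolipoprotein J, had 19.9 ± 3.41 CPM per kb, neighbours that did not differ beyond their spread. *Apoe*, the main lipid carrier of the brain, followed at 9.15 ± 3.54 CPM per kb and *Slc4a4*, the sodium bicarbonate cotransporter NBCe1, at 8.01 ± 2.24 CPM per kb, again within their spread. *Gja1* (connexin 43), *Gfap*, *Gjb6* (connexin 30) and *Aqp4* lay between 5.17 and 5.88 CPM per kb. They had no order beyond their spread over the 10 libraries, which includes the difference between the groups. In the Dorsal libraries alone *Gjb6* had the highest mean of them (7.68 CPM per kb) and *Aqp4* the lowest (6.58). In the Ventral ones *Gja1* had the highest (4.76 CPM per kb) and *Gjb6* the lowest (2.76). *Aldh1l1*, a cytosolic enzyme of folate metabolism, was lowest at 0.590 ± 0.448 CPM per kb, below the median of 2.96 CPM per kb over all tested genes.

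The comparison of Dorsal with Ventral libraries asked how the ribosome-bound RNA differs along the long axis of the hippocampus. Genes were called at an adjusted p below 0.05 (edgeR's quasi-likelihood test, Benjamini-Hochberg over all 16806 genes) together with a log2 ratio of the mean CPM values, each plus 1, beyond 0.58 in either direction. *Aqp4*, *Gfap* and *Gjb6* were higher in Dorsal libraries and *Aldh1l1* was higher in Ventral libraries, while the other 6 genes did not pass. Across all tested genes 15.7% were called Dorsal higher and 9.85% Ventral higher, beside 3 and 1 of the 10 markers. In either direction 25.5% of all genes were called, beside 4 of 10 markers, and 33.6% had an adjusted p below 0.05 without the fold threshold, beside the same 4 markers. Of the 10 markers 8 had a log2 fold change above 0 (Dorsal over Ventral), against 49.6% of all genes, and their median was 0.42, against -0.0044 over all genes. The groups did not overlap for *Aqp4* and *Gjb6*, 2 of 10 genes, against 18.2% of all genes in either direction and 9.81% with Dorsal higher.

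The share of read pairs outside genes differed between the groups without overlap, so that a fit with it cannot tell the share from the region. This share was used as a covariate in an alternative chosen after the results were seen. None of the markers was then called Dorsal higher (0 of 10) by edgeR's quasi-likelihood test, and the median log2 fold change was -0.00096. In that fit 2 of the 10 markers had an unadjusted p below 0.05, against 6 without the covariate. The matching share over all genes in the covariate fit is not given here. *Gjb6* then had a log2 fold change of 1.15 (adjusted p = 0.0635), *Aqp4* 0.62 (adjusted p = 0.278) and *Gfap* 0.13 (adjusted p = 0.855), while *Aldh1l1* stayed called at -3.69 (adjusted p = 0.0272), and *Gja1*, *Slc4a4* and *Apoe* changed sign to -0.29, -0.044 and -0.83 without passing. The same covariate lowered the number of genes called Dorsal higher from 2636 to 834 and Ventral higher from 1655 to 339.

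**Figure D1:**
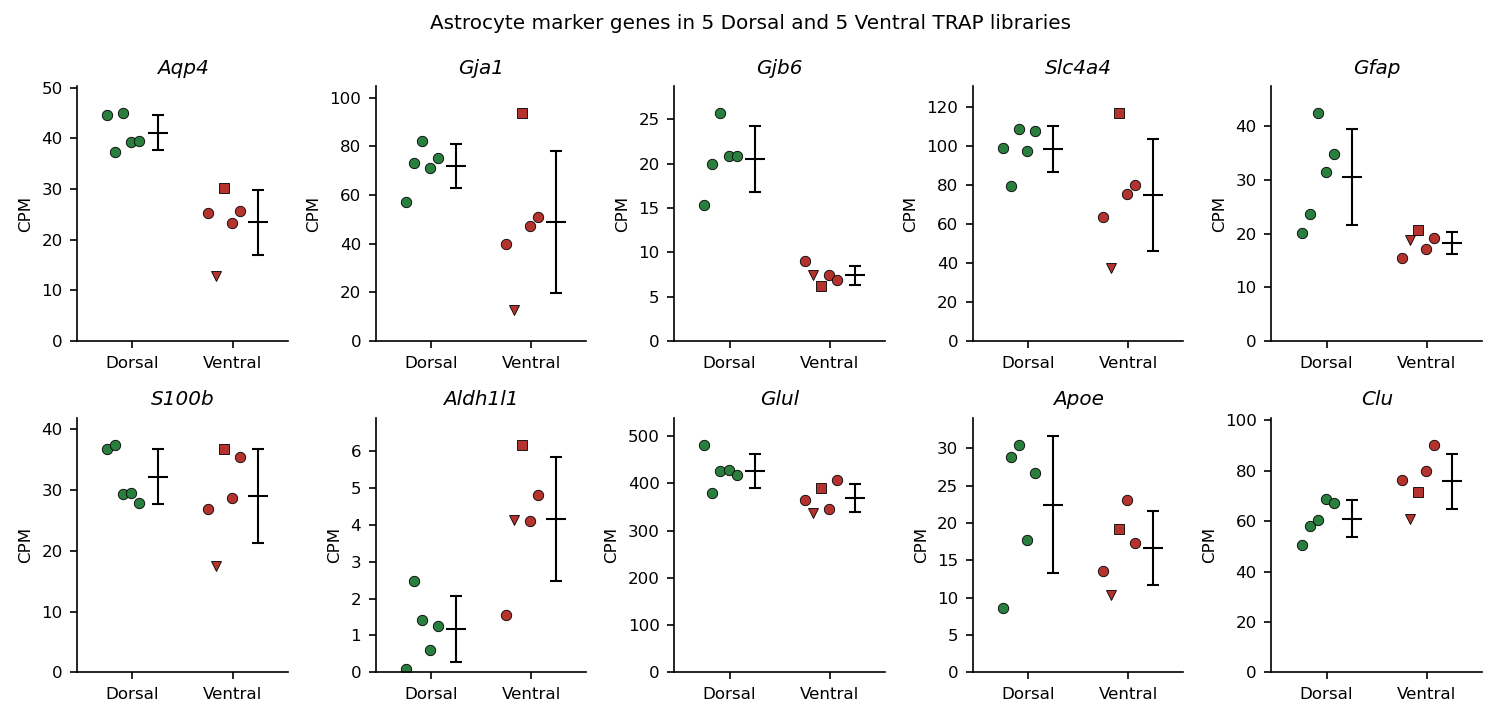
Level of the 10 astrocyte markers in CPM (linear axes from 0) in each Dorsal (green) and Ventral (red) library, with the mean and SD of each group in black; the triangle is Ventral 2 and the square Ventral 3. *Aqp4* and *Gjb6* show separate groups, and *Gja1* and *Slc4a4* show Ventral 2 far below and Ventral 3 far above the other Ventral libraries.

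*Gjb6* and *Gja1* encode the connexins that couple astrocytes into a network. *Gjb6* (ENSMUSG00000040055, chr14:57123303-57133611, minus strand, GRCm38) measured 15.3, 19.9, 25.7, 20.8 and 20.9 CPM in Dorsal libraries 1 to 5 and 9.04, 7.48, 6.16, 7.40 and 6.85 CPM in Ventral libraries 1 to 5. The lowest Dorsal library lay above the highest Ventral library. The group means were 20.5 ± 3.68 and 7.39 ± 1.07 CPM (SD, n = 5 each), a log2 fold change of 1.48 ± 0.19 (SE; edgeR adjusted p = 0.000136). It was the largest Dorsal difference among the 10 markers. *Gja1* (ENSMUSG00000050953, chr10:56377330-56402513, plus strand) measured 57.3, 73.2, 82.1, 71.0 and 75.2 CPM in Dorsal and 39.8, 12.8, 93.6, 47.1 and 50.8 CPM in Ventral libraries. Ventral 3 was the highest of all 10 libraries and Ventral 2 the lowest, so that the groups overlapped. The means were 71.8 ± 9.10 and 48.8 ± 29.1 CPM, and the log2 fold change of 0.56 ± 0.30 did not pass (edgeR adjusted p = 0.165). Without Ventral 3 it was 0.89 and passed (edgeR adjusted p = 0.0193), as it did at 0.64 without both Ventral 2 and Ventral 3 (edgeR adjusted p = 0.00635). Without Ventral 2 alone it was 0.34 and did not pass (edgeR adjusted p = 0.230).

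The 250 bases before the RefSeq start of these and other markers (GRCm38.p6) are shown for the connexin pair, of which *Gjb6* was called and *Gja1* was not, for *Gfap* and *Aldh1l1*, which were called in opposite directions, and for *S100b*, which did not pass. Sequences read 5′ to 3′ on the strand of the gene, and capitals mark matches to the motifs named after them.

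Gjb6, chr14:57133612-57133861, minus strand: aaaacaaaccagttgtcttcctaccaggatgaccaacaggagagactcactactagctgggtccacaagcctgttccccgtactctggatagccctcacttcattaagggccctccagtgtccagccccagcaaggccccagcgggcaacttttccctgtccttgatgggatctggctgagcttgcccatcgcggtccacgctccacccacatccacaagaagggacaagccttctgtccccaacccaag

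Gja1, chr10:56377050-56377299, plus strand: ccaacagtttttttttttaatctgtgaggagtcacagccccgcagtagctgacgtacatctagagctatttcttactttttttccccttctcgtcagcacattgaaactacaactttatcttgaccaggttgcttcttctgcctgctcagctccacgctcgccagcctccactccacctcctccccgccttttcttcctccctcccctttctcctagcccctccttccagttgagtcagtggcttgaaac

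Gfap, chr11:102897201-102897450, minus strand: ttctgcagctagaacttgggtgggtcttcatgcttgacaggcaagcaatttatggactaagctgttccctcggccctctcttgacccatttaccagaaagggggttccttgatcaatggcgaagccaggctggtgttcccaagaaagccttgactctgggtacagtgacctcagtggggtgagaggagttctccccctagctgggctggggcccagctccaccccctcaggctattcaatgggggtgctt

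Aldh1l1, chr6:90550543-90550792, plus strand: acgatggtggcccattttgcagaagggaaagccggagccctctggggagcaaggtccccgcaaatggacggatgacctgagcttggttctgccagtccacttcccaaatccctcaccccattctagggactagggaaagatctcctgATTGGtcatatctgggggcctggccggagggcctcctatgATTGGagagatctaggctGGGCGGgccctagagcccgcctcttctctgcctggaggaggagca

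S100b, chr10:76253586-76253835, plus strand: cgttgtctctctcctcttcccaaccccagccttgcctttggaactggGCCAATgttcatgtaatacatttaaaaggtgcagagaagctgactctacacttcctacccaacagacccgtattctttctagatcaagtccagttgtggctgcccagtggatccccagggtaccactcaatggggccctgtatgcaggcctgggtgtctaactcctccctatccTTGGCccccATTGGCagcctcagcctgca

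Both strands were searched for 6 motifs, of which 2 were added after the first search. They were the short site of NFI factors (TTGGC, in 41.5% of 32841 RefSeq promoter windows of this length), a STAT site (TTCNNNGAA, 7.02%), a SOX core (ACAAT, 27.7%), the TATA box (TATAAA, 12.4%), the CCAAT box (33.9%) and the GC box (GGGCGG, 32.7%). The reverse strand of the short NFI site and the CCAAT box share bases where they adjoin. *Gjb6*, *Gja1* and *Gfap* held none of these letters in the window. *Aldh1l1* held 2 CCAAT boxes and 1 GC box, and *S100b* held 3 short NFI sites and 2 CCAAT boxes. Entries were found for 8 of the markers, with 11 windows in all.

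*Aqp4* encodes the water channel of astrocyte endfeet. *Aqp4* (ENSMUSG00000024411) measured 44.5, 37.2, 44.9, 39.2 and 39.4 CPM in Dorsal libraries 1 to 5 and 25.2, 12.8, 30.1, 23.2 and 25.6 CPM in Ventral libraries 1 to 5. All Dorsal libraries lay above all Ventral libraries, and Ventral 2 was again lowest. The means were 41.0 ± 3.46 and 23.4 ± 6.45 CPM, a log2 fold change of 0.79 ± 0.17 (edgeR adjusted p = 0.0040).

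*Slc4a4* carries bicarbonate with sodium across the astrocyte membrane and sets local pH. *Slc4a4* (ENSMUSG00000060961, chr5:88886818-89239653, plus strand) measured 99.2, 79.6, 109, 97.4 and 107 CPM in Dorsal and 63.8, 37.3, 117, 75.5 and 79.9 CPM in Ventral libraries. As for *Gja1*, Ventral 3 was above every Dorsal library and Ventral 2 below all others. The log2 fold change was 0.40 ± 0.21 (edgeR adjusted p = 0.160), and without Ventral 3 it was 0.59 and passed (edgeR adjusted p = 0.0256). Without Ventral 2 instead it was 0.24 and did not pass (edgeR adjusted p = 0.274).

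*Gfap* encodes the intermediate filament by which astrocytes are commonly stained. *Gfap* (ENSMUSG00000020932, chr11:102887336-102900912, minus strand) measured 20.1, 23.7, 42.5, 31.5 and 34.9 CPM in Dorsal and 15.5, 18.8, 20.7, 17.1 and 19.1 CPM in Ventral libraries. Dorsal 1 lay just below Ventral 3, and the other Dorsal libraries lay above every Ventral library. The means were 30.5 ± 8.90 and 18.2 ± 2.0 CPM, a log2 fold change of 0.76 ± 0.20 (edgeR adjusted p = 0.0097). Without Dorsal 3, the highest library, the fold change was 0.62 (edgeR adjusted p = 0.0248) and the log2 ratio fell below the threshold for a call.

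*S100b* (ENSMUSG00000033208, chr10:76253853-76261159, plus strand) measured 27.8 to 37.4 CPM in Dorsal and 17.5 to 36.7 CPM in Ventral libraries, with medians of 29.5 and 28.7 CPM. The log2 fold change was 0.13 ± 0.18, with a 95% interval of -0.26 to 0.52 (edgeR adjusted p = 0.614).

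*Aldh1l1* oxidises a folate derivative and is widely used to label astrocytes. *Aldh1l1* (ENSMUSG00000030088, chr6:90486427-90600203, plus strand) measured 0.094, 2.47, 1.43, 0.60 and 1.26 CPM in Dorsal and 1.55, 4.14, 6.16, 4.11 and 4.82 CPM in Ventral libraries. These levels rested on 1 to 38 counts per Dorsal library and 28 to 102 per Ventral library, 86 and 315 in total. Dorsal 2 lay above Ventral 1, so that the groups overlapped, and the remaining Dorsal libraries lay below all Ventral libraries. The means were 1.17 ± 0.90 and 4.16 ± 1.68 CPM, a log2 fold change of -1.72 ± 0.49 (edgeR adjusted p = 0.0164). Without Dorsal 4 it was -1.503 and was not called (edgeR adjusted p = 0.0530), and without both Ventral 2 and Ventral 3 it was -1.53 (edgeR adjusted p = 0.0503). Of its exonic length 13.4% is shared with *Gm15756* and *Gm45901*, which had 0 counts in all libraries.

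*Glul* (ENSMUSG00000026473, chr1:153899944-153909723, plus strand) measured 482, 380, 426, 427 and 417 CPM in the Dorsal libraries and 365, 338, 391, 345 and 408 CPM in the Ventral ones. Dorsal 2 lay below Ventral 3 and Ventral 5. The log2 fold change of 0.21 ± 0.092 did not pass (edgeR adjusted p = 0.0971). A stretch of 3.49% of its exonic length is shared with *Teddm2*, which had counts in every library, and *Mir8114*, which had 0.

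*Apoe* and *Clu*, the lipid carriers, had log2 fold changes of opposite sign, and neither passed. *Apoe* (ENSMUSG00000002985, chr7:19696109-19699188, minus strand) measured 8.66, 28.8, 30.5, 17.7 and 26.6 CPM in Dorsal and 13.6, 10.3, 19.2, 23.03 and 17.4 CPM in Ventral libraries. Dorsal 1 was the lowest of all 10 libraries. The log2 fold change was 0.44 ± 0.28 (edgeR adjusted p = 0.243), and it passed at 0.62 without Dorsal 1 (edgeR adjusted p = 0.0488) and at 0.67 after correction for GC content and length (edgeR adjusted p = 0.0360). *Clu* (ENSMUSG00000022037, chr14:65968483-65981547, plus strand) measured 50.5 to 68.8 CPM in Dorsal and 60.8 to 90.3 CPM in Ventral libraries, with medians of 60.4 and 76.2 CPM. The log2 fold change of -0.32 ± 0.13 did not pass (edgeR adjusted p = 0.0711).

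**Figure D2:**
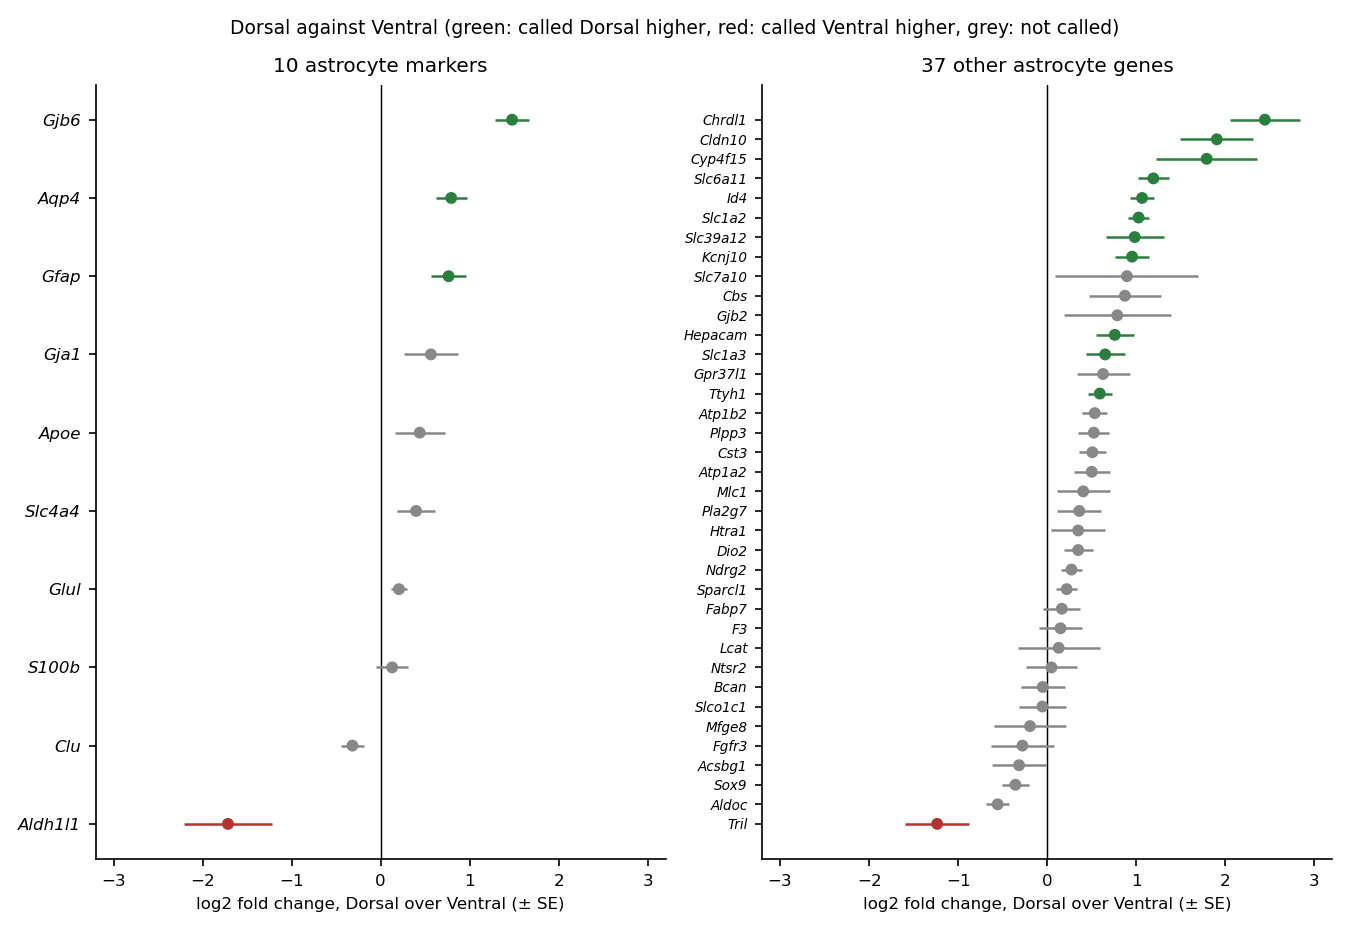
Log2 fold change of Dorsal over Ventral with its SE for the 10 markers (left) and the 37 other astrocyte genes (right), sorted by value, with genes called Dorsal higher in green, Ventral higher in red and not called in grey. *Gjb6* stands highest and *Aldh1l1* lowest of the markers, and *Chrdl1* and *Tril* are the ends of the other list.

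Not all markers spread together within the groups. Ventral 2 was the lowest of its group for 7 of the 10 markers and Ventral 3 the highest for 6, and among Dorsal libraries Dorsal 1 was the lowest for 6 and Dorsal 3 the highest for 6. After each group's mean was removed, *Gja1*, *Slc4a4* and *Aqp4* varied together over the 10 libraries (Pearson r of 0.94 for *Gja1* with *Slc4a4*, 0.92 for *Aqp4* with *Slc4a4* and 0.91 for *Aqp4* with *Gja1*). *S100b* varied with *Aqp4* (r of 0.82) and *Gja1* (0.80). The r with the mean of the other markers was lowest for *Gjb6* (-0.03). It was also low for *Glul* (0.15), *Aldh1l1* (0.27) and *Gfap* (0.38), and *Gjb6* had an r of 0.52 with *Gfap*. These are descriptions over libraries among which Ventral 2 and Ventral 3 lie at the ends.

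**Figure D3:**
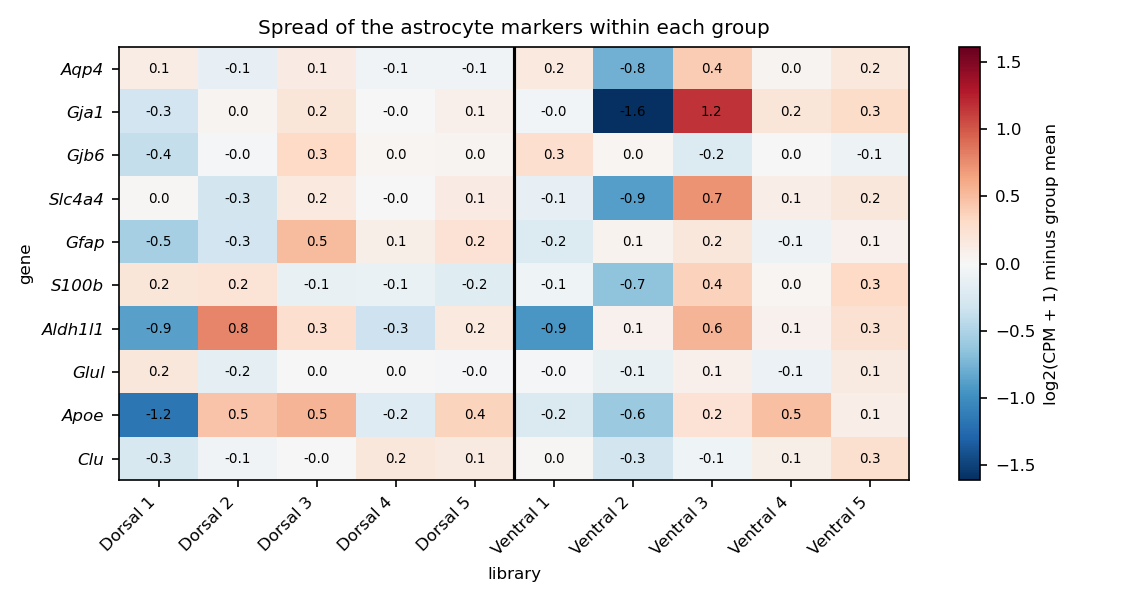
Deviation of log2(CPM + 1) from the mean of its own group for each marker (rows) and library (columns), in log2 units, with red above and blue below the mean. Ventral 2 is blue and Ventral 3 red for *Aqp4*, *Gja1*, *Slc4a4* and *S100b*, while *Gjb6* is near 0 in Ventral 2 and below 0 in Ventral 3.

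After the levels were seen, 5 ratios to *Gja1* within a library were compared, with Benjamini-Hochberg adjustment over the 5. *Gjb6* over *Gja1* was 0.285 ± 0.018 in Dorsal and 0.234 ± 0.205 in Ventral libraries, from 0.0659 in Ventral 3 to 0.586 in Ventral 2 (exact permutation test, two-sided p = 0.659, adjusted p = 0.968). *Aldh1l1* over *Gja1* was 0.0156 ± 0.012 in Dorsal and 0.122 ± 0.115 in Ventral libraries and was lower in all Dorsal libraries (two-sided exact permutation p = 0.0079, the smallest possible here, adjusted p = 0.0397). The levels of both genes were known when this ratio was chosen, so its p is not independent of the call of *Aldh1l1*. The highest ratio, 0.324 in Ventral 2, came with a *Gja1* level of 12.8 CPM, and Dorsal 1 rested on 1 *Aldh1l1* count. The ratios of *Aqp4*, *Gfap* and *Slc4a4* had adjusted p of 0.968, 0.968 and 0.496 (exact permutation test).

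The tested genes closest to the markers' mean standardised pattern within groups, among 10598 genes with a mean of at least 5 CPM, were *Tmem42* (r = 0.983), *Rnf31* (0.982), *Sptbn1* (0.981), *Wdr4* (0.980) and *Mbp* (0.978), over 10 libraries. They are the top of a long ranking.

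A list of 37 other genes used as astrocyte markers was compared beside the 10, and all 37 were tested. Of these, 11 were called Dorsal higher and 1 Ventral higher, against 15.7% and 9.85% of all genes, their median log2 fold change was 0.50, against -0.0044 over all genes, and their summed level was 3274 to 3731 CPM in the Dorsal libraries and 1713 to 2477 CPM in the Ventral ones. *Slc1a2*, the glutamate transporter GLT-1, made up much of this sum with 1774 ± 80.5 CPM in the Dorsal libraries and 870 ± 161 CPM in the Ventral ones, a log2 fold change of 1.03 ± 0.12 (edgeR adjusted p = 6.8e-05). *Slc1a3*, the transporter GLAST, had 49.8 ± 9.56 and 31.0 ± 10.01 CPM (log2 fold change 0.65, edgeR adjusted p = 0.0335). *Id4*, a transcriptional regulator, had 271 ± 44.5 and 130 ± 19.3 CPM (log2 fold change 1.07, edgeR adjusted p = 0.000114). *Tril*, a Toll-like receptor partner, had 4.47 ± 2.20 and 10.7 ± 4.87 CPM (log2 fold change -1.24, edgeR adjusted p = 0.0189). *Ndrg2*, one of the most abundant of the list, had 268 ± 21.9 and 221 ± 33.7 CPM and was not called (edgeR adjusted p = 0.0786). *Aldoc* was higher in all Ventral libraries (133 ± 16.7 and 196 ± 30.7 CPM, log2 fold change -0.56, edgeR adjusted p = 0.0053) but missed the ratio threshold. In all, 29 of the 37 had a log2 fold change above 0 and 8 below 0, against 49.6% of all genes above 0. When the share of pairs outside genes entered the fit as covariate, 3 of the 37 were called Dorsal higher, beside 834 of all 16806 tested genes.

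Gene groups around the single markers were counted by list, to be read against the 15.7% of all genes called Dorsal higher and 9.85% Ventral higher. The lists overlap, and *Kcnj10*, *Hepacam*, *Mlc1*, *Slc1a2*, *Slc1a3*, *Gjb2* and *Lcat* are also among the 37 other astrocyte genes, so that their calls are counted in both places. Of the 10 genes of the endfoot complex that anchors *Aqp4*, 2 were called Dorsal higher, and none Ventral higher. These were *Kcnj10*, the potassium channel Kir4.1 (48.2 ± 4.01 against 25.2 ± 8.04 CPM, edgeR adjusted p = 0.0024), and *Hepacam* (30.8 ± 5.84 against 17.9 ± 5.80 CPM, edgeR adjusted p = 0.0151). Of 9 other connexins 5 were tested, and *Gjc3* was called Dorsal higher and *Gjd2* and *Gjc1* Ventral higher. *Gjc3*, a connexin of oligodendrocytes, had 233 ± 52.1 against 89.1 ± 19.5 CPM, and *Gjd2*, the neuronal connexin 36, had 3.31 ± 0.895 against 10.7 ± 2.06 CPM.

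Of the bicarbonate transporters and carbonic anhydrases, 3 of 13 tested genes were called Dorsal higher (*Slc4a2*, *Slc4a7* and *Car12*), with a median log2 fold change of -0.013. *Slc4a7* had 46.6 ± 4.99 against 20.1 ± 5.97 CPM (log2 fold change 1.26, edgeR adjusted p = 0.000265). Of filament genes and genes of reactive astrocytes, 3 of 11 tested were called Dorsal higher (*Nes*, *Cd44* and *Ggta1*). The means of these 3 lay below 4 CPM in both groups, while *Vim*, the intermediate filament vimentin, had 10.1 ± 2.03 against 6.47 ± 3.21 CPM and did not pass (edgeR adjusted p = 0.127). In the list of other S100 genes, which also holds the S100P-binding protein gene *S100pbp*, 1 of 7 tested, *S100a13*, was called Dorsal higher.

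Of 17 tested genes of folate metabolism, the pathway of *Aldh1l1*, 0 were called in either direction by edgeR and 0 by DESeq2. An unadjusted edgeR p below 0.05 was found for 7 of the 17. Over all tested genes that share was at least 33.6%, the part that passed 0.05 after adjustment. Of 11 tested genes of glutamate and glutamine handling beside *Glul*, *Slc1a2* and *Slc1a3* were called Dorsal higher and the aminotransferases *Got1* and *Got2* Ventral higher. *Got1* had 150 ± 29.2 against 229 ± 21.6 CPM (log2 fold change -0.61, edgeR adjusted p = 0.0031). Of 13 tested genes of lipid carriage, 6 were called Dorsal higher (*Abca1*, *Lrp8*, *Vldlr*, *Lrp2*, *Sorl1* and *Lpl*) and 0 Ventral higher. The exporter *Abca1*, which loads lipid on apolipoprotein E, had 12.3 ± 2.06 against 6.72 ± 1.87 CPM (log2 fold change 0.85, edgeR adjusted p = 0.0104), and the apolipoprotein receptor *Vldlr* had 116 ± 17.3 against 74.1 ± 15.1 CPM (log2 fold change 0.64, edgeR adjusted p = 0.0064).

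Of the lists of other cell types and neurons, the summed levels of oligodendrocyte and neural stem cell genes were higher in all Dorsal libraries. The sum of pan-neuronal genes was higher in all Ventral libraries, and the other lists overlapped. *Snap25* held most of the pan-neuronal sum (172376 counts in Dorsal 1, against 12446 for *Map2*, the next), and the separation was not examined without it. Of the 10 pan-neuronal genes 1 was called Dorsal higher, 2 Ventral higher and 7 neither. The 9 oligodendrocyte genes summed to 1096 to 1232 CPM in the Dorsal libraries and 491 to 961 CPM in the Ventral ones, with Ventral 3 the highest and Ventral 2 the lowest Ventral library. Of them 5 were called Dorsal higher, and *Cldn11*, a tight junction protein of myelin, had 284 ± 34.4 against 149 ± 71.1 CPM (log2 fold change 0.94, edgeR adjusted p = 0.0070). The 5 neural stem cell genes summed to 92.6 to 126 CPM in Dorsal and 55.8 to 85.2 CPM in Ventral libraries, and 3 were called Dorsal higher. The 6 genes of ependyma and choroid plexus summed to 124 to 965 and 178 to 422 CPM, with 4 called by edgeR, Dorsal higher, and 2 by DESeq2. The 10 microglial genes summed to 30.8 to 49.4 and 22.01 to 36.6 CPM, with 3 called Dorsal higher.

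None of the 10 endothelial genes was called by edgeR or by DESeq2, and 3 had an unadjusted p below 0.05. Over all tested genes at least 33.6% had an unadjusted edgeR p below 0.05, since that share passed after adjustment. The endothelial genes summed to 18.8 to 67.5 CPM in Dorsal and 19.5 to 90.8 CPM in Ventral libraries. Ventral 3 was again highest, and Ventral 2 was the lowest Ventral library. The 5 genes of oligodendrocyte precursors summed to 35.9 to 67.8 and 39.2 to 61.8 CPM (1 called Dorsal higher), and the 6 mural genes to 92.7 to 139 and 104 to 114 CPM (of 5 tested, 0 called by edgeR and DESeq2, 1 with an unadjusted p below 0.05). The 5 blood genes summed to 2.82 to 9.36 and 4.33 to 7.78 CPM (of 3 tested, 0 called by either tool, 0 with an unadjusted p below 0.05). Mossy cell genes summed to 1739 to 2009 and 1807 to 2116 CPM, with 3 called Dorsal higher and 2 Ventral higher. With the share of pairs outside genes as covariate, 7 of 10 endothelial genes had an unadjusted p below 0.05, against 3 without it, and 1 of 9 oligodendrocyte genes, against 6 without it. The share of all genes at that threshold in the covariate fit is not given here. The part of these cell types in the differences of the astrocyte markers was not tested.

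**Figure D4:**
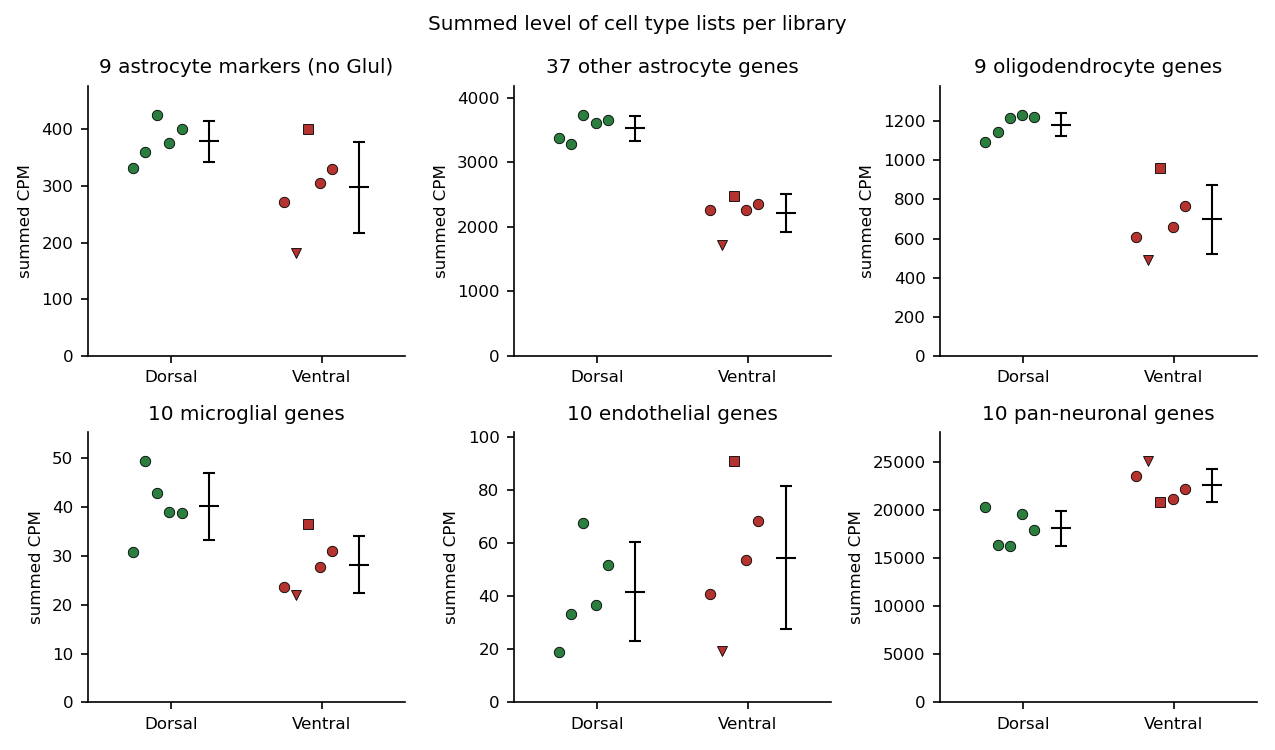
Summed CPM of 6 lists of cell type genes per library (linear axes from 0), with points, means and SDs as in the plot of the markers and with the triangle for Ventral 2 and the square for Ventral 3. The other astrocyte genes and the oligodendrocyte genes lie higher in all Dorsal libraries. The summed pan-neuronal genes, mostly *Snap25*, lie higher in all Ventral libraries. The 9 markers without *Glul* overlap between 332 to 426 CPM in the Dorsal libraries and 182 to 401 CPM in the Ventral ones.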

How the data were processed

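RNA bound to EGFP-L10a ribosomes was precipitated from 5 Dorsal and 5 Ventral pools, amplified with the Ovation kit and sequenced as paired ends. The deposited values are whole-number counts of read pairs per Ensembl gene, which the authors made with STAR 2.5.2b on GRCm38 and HTSeq-count 0.7.2, with no normalization. The annotation release and the strand setting are not given in the sources used here. Without strand, reads of overlapping genes cannot be told apart. Replicate numbers came from the labels.

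The fit used edgeR 4.0.16 (R 4.3.3) with its quasi-likelihood test after TMM scaling, on genes exceeding a CPM of 1 in 2 or more libraries, with Benjamini-Hochberg adjustment. The quasi-likelihood dispersions were set with legacy=FALSE after 8 fits had been compared for their counts of calls, because this setting matched an earlier analysis of these data. The package default, listed as the dispersions of edgeR 3, was kept as an alternative, and it called the same number of markers. SE was obtained by dividing the fold change (log2) by the root of F. Exonic length, GC content and positions came from GENCODE M21, which matched 54809 of 54838 identifiers, and promoters came from RefSeq (GRCm38.p6). No duplicate libraries were found (chi-square per degree of freedom 4.36 to 45.1). The fit was tested on simulated data.

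The markers and gene lists were chosen with earlier results of these data known. The genes named in the lists are the 3 most abundant of each list and those called. Not every gene of this rule is given. *Aldoc* was named beyond this rule, and the promoter windows shown were chosen, after values were seen. Some genes of these lists are not reported here, and the sums and counts leave them out. Alternatives were DESeq2 1.42.0, other scalings and filters, edgeR's own fold change, the replicate block, a GC and length correction with mgcv 1.9.3, both together, mitochondrial genes left out and leaving out each library. A covariate for the share of pairs outside genes, the dispersions of edgeR 3 and Ventral 2 and 3 both left out were added after seeing the data.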

Additional observations from a re-analysis of the deposited data

How the results depend on the processing

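Of 24 alternatives, 21 were planned, and 22 gave a count of markers called Dorsal higher within 1.5 times of 3. When the share of pairs outside genes entered the fit as covariate, 834 genes were called Dorsal higher and 339 Ventral higher, 0 markers and 3 other astrocyte genes were called Dorsal higher, and the markers' median log2 fold change was -0.00096. There *Gja1*, *Slc4a4* and *Apoe*, not called in either fit, turned to -0.29, -0.044 and -0.83. The cause was not tested. The calls of *Aqp4*, *Gfap* and *Gjb6* were lost only there, apart from *Gfap* without Dorsal 3. Without both Ventral 2 and Ventral 3, 0 markers were called Ventral higher, and with the GC and length correction 0 other astrocyte genes were. With one library left out in turn, the markers called Dorsal higher numbered 2 to 5 and Ventral higher 0 to 1, the other astrocyte genes 8 to 13 and 0 to 2, all genes 2105 to 2670 and 1216 to 1815, and the median was 0.29 to 0.54. Of these, the 5 markers came without Ventral 3. The dispersions of edgeR 3 called 2217 genes Dorsal higher and 1408 Ventral higher.

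Same-numbered libraries did not deviate together (correlations from -0.018 to 0.041), and whether equal numbers share mice is not stated, so the block was used as an alternative only. The replicate block gave 2656 and 1674 genes, 3 and 1 markers, and a median of 0.42. Without a filter on low values the median of all genes was 0.11. The depth limits *Aldh1l1* most, since 1 Dorsal library held 1 count.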
